A study of Mus musculus with 4 samples.

Results

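The genes described are 10 that encode PIWI proteins and factors of piRNA biogenesis, followed in testes that lack Adad2 and in wild type testes. They were taken by symbol from a table of 26068 named entries: Piwil1, Piwil2, Piwil4, Mov10l1, Pld6, Mael, Asz1, Gtsf1, Ddx4 and Ddx25. Each symbol had 1 entry, and none was missing. Of the 10, 9 reached the level needed for testing, a mean of 1 RPKM (reads scaled to the length of the gene and the depth of the library), while Piwil4 did not.

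RNA came from whole testes of 24-day-old B6D2F1 males, a hybrid of inbred mouse strains, and was sequenced after TruSeq library preparation. There were 2 libraries from mice homozygous for an Adad2 knockout and 2 from wild type mice. Both groups share strain, sex and age. The labels do not describe the knockout allele or say whether the replicates are separate animals, so the p-values reflect how far these libraries differ from each other and may cover technical variation alone. The depth, estimated from what a single read was worth, was about 33000000 and 29400000 reads in the knockout libraries and 30200000 and 36900000 reads in the wild type libraries. Adad2 itself was at 13.2 and 9.86 RPKM in knockout testes, against 25.2 and 22.2 RPKM in wild type testes, so both knockout libraries were the lower and transcript remained. The series' title names piRNA production and spermiogenesis as its subject.

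piRNAs are small RNAs of the animal germ line that guide PIWI proteins to transposon transcripts and other RNAs. In the mouse testis, long precursor transcripts are handed by the RNA helicase MOV10L1 to the mitochondrial surface, where the endonuclease PLD6 cuts them and PIWI proteins take up the fragments. PIWIL2 (MILI) acts from before birth through meiosis, PIWIL1 (MIWI) appears in pachytene spermatocytes and stays in round spermatids, and PIWIL4 (MIWI2) acts mainly in the fetal germ line, where it directs DNA methylation of transposons. Pachytene piRNAs, the most abundant class of the adult testis, are thus made in meiotic cells, and the transcription factor A-MYB, the product of Mybl1, drives both their precursors and several genes of the pathway.

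Promoters of these genes are shown because all the values that follow are levels of the transcripts that start there. RefSeq promoters (GRCm38.p6) were found for 9 of the 10 genes, all but Piwil2. The window shown is the 250 bases before the start of the gene, 5′ to 3′ on the gene's strand. Capitals mark CACGTG, the palindromic E-box, the same letters on both strands. Piwil1, the PIWI gene with the highest level, and Ddx4, the germ granule helicase, are set beside Gtsf1, whose transcript alone among the 9 tested was lower in both knockout libraries than in both wild type libraries.
Piwil1, chr5:128735996-128736245, plus strand: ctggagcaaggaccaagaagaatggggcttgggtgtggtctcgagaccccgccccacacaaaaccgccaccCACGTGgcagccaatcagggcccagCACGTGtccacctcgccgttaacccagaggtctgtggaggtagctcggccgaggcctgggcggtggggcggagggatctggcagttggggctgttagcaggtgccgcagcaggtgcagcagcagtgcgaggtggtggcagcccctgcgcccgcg
Ddx4, chr13:112652311-112652560, minus strand: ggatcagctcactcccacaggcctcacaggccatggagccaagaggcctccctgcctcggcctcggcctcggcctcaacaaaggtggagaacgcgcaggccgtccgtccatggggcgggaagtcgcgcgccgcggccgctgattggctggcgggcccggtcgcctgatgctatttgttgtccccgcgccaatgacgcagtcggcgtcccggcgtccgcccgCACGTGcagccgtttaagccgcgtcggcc
Gtsf1, chr15:103430428-103430677, minus strand: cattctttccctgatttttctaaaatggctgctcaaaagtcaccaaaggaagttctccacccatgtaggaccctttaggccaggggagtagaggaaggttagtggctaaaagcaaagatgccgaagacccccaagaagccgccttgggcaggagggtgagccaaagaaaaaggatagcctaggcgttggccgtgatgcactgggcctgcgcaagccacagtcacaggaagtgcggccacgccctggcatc

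CACGTG stood in this window in 5 of the 9 genes: Piwil1, Mael, Pld6, Ddx4 and Mov10l1. It was not found in that window in Asz1, Piwil4, Ddx25 or Gtsf1. Here and below, a gene counted if any of its listed starts held the motif. Pld6 did not hold CACGTG at every listed start. Piwil1 held it at 2 places, starting 179 and 154 bases before the gene's start, and Ddx4 held it 29 bases before the start. The motif was chosen after these sequences had been read. Of 27025 genes with a promoter in the RefSeq table, 6.9% held it, and of 8898 that were also tested here, 893 did. Letters of the MYB motif (CNGTTA or CNGTTG on either strand; neither can overlap CACGTG) were found in 4 of the 9 genes, Piwil1, Piwil4, Pld6 and Mov10l1, against 46.5% of all genes with a promoter. Piwil4 did not hold the MYB letters at every listed start. Of 24 other genes of the piRNA pathway with a promoter, 5 held CACGTG and 9 held the MYB letters.

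The levels of the 10 transcripts spanned a wide range, and their order was nearly the same in all 4 libraries. Per length, Mael was highest, at 360 and 350 RPKM in knockout testes and 333 and 397 RPKM in wild type testes. MAEL is a germ granule protein needed for transposon silencing. At least 99.8% of the 13414 genes tested had a lower level than Mael in every library. Ddx25, Ddx4 and Piwil1 followed, with means over the 4 libraries of 159, 140 and 119 RPKM. Gtsf1 and Piwil2 averaged 56.6 and 56 RPKM, Pld6 36.7 RPKM, Mov10l1 31.8 RPKM and Asz1 9.81 RPKM. Piwil4 was far below, at 0.239 RPKM.

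Neighbours in this order kept their places in all 4 libraries with 1 exception. Mael exceeded Ddx25 by 1.15 to 1.22 on the log2 scale within each library, and Ddx25 exceeded Ddx4 by 0.14 to 0.23. Ddx4 exceeded Piwil1 by 0.16 to 0.33. Among pairs that did not change places, the smallest gap in any library was 0.04, between Pld6 and Mov10l1, whose gaps reached 0.39. Gtsf1 and Piwil2 changed places: Piwil2 was the higher in both knockout libraries and Gtsf1 the higher in both wild type libraries.

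**Figure D1:**
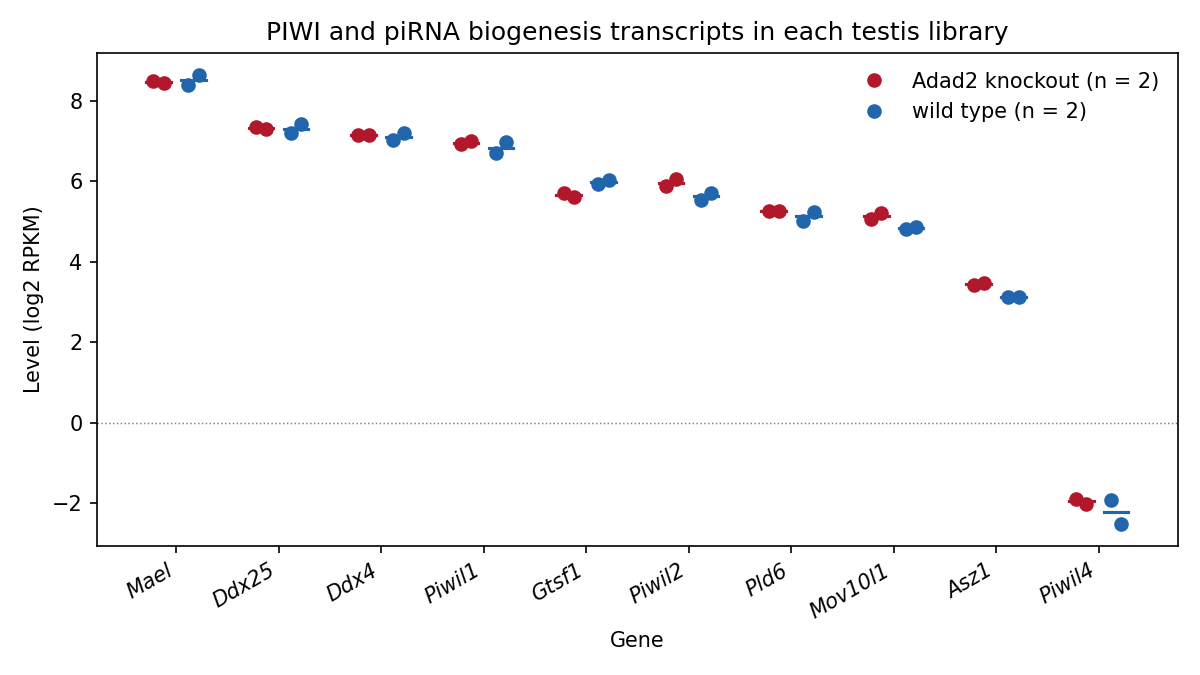
Level of each of the 10 transcripts in log2 RPKM on the vertical axis, with genes ordered by their mean over the 4 libraries. Points are single libraries and bars are group means (Adad2 knockout, n = 2, and wild type, n = 2). Mael lies highest and Piwil4 alone lies below 0, and Gtsf1 and Piwil2 are the pair whose order differs between the groups.

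None of the 9 tested transcripts passed the test between knockout and wild type testes in either direction (limma, Benjamini-Hochberg adjusted p under 0.05 over 13414 genes), while 8.36% of all genes tested did. With wild type replicate 1 left out, limma called 0 of the 13414 genes, with 2357 at an unadjusted p under 0.05. At an unadjusted p under 0.05 there were 4 of the 9, Asz1, Mov10l1, Piwil2 and Gtsf1, against 27% of all genes. The median log2 difference of the 9 was 0.13, beside 0.14 over all genes tested, and 7 of the 9 lay above 0, as did 71.8% of all genes. Both knockout libraries lay above both wild type libraries for 4 of the 9, against 46.4% of all genes, so this count is near the background. They lay below for 1 of the 9, against 16.8%. The 4 above were Piwil2, Mov10l1, Asz1 and Pld6, and the 1 below was Gtsf1. In whole testes, a change in the number of cells of a type and a change in RNA per cell cannot be told apart.

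Among the PIWI genes, Piwil1 was at 6.93 and 6.99 log2 RPKM in knockout testes, against 6.69 and 6.97 in wild type testes. The knockout libraries lay close to wild type replicate 2, with wild type replicate 1 apart below them, and the groups overlapped. The ratio of knockout to wild type had a 95% confidence interval of 0.892 to 1.34 (adjusted p = 0.503, limma). Piwil2 was at 58.8 and 66.4 RPKM in knockout testes and 46.7 and 52.3 RPKM in wild type testes. The groups did not overlap, and the knockout level was 1.27-fold that of wild type, with an interval of 1.05 to 1.53 (adjusted p = 0.124, limma). It passed with libraries scaled to spermatocyte markers, a setting chosen after seeing the data (adjusted p = 0.0474), and its adjusted p ranged from 0.0474 to 0.439 over the alternatives tried. The log2 difference of Piwil2 exceeded the median of all genes by 0.20.

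A constant scaling of each library cancels from the balance of the PIWI transcripts, while quantile normalization can move it. On the log2 scale, Piwil2 minus Piwil1 was -1.05 and -0.93 in knockout testes, against -1.15 and -1.26 in wild type testes. The groups did not overlap and averaged -0.99 ± 0.08 in knockout and -1.20 ± 0.08 in wild type (SD, n = 2 each), a shift of 0.21. The shift was 0.27 after quantile normalization and 0.15 to 0.27 when a library was left out. It is given as a description and was not tested.

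Piwil4 was detected at a low level in every library. It was at 0.27 and 0.246 RPKM in knockout testes and 0.264 and 0.176 RPKM in wild type testes, which corresponds to about 48 and 39 reads in knockout and 43 and 35 reads in wild type. The groups overlapped. Without the filter on low values, the log2 difference was 0.26 with an interval of -0.66 to 1.17 (adjusted p = 0.813, limma), which leaves its direction unresolved. An entry of the opposite strand, Gm10706, overlaps Piwil4, and the use of strand in counting is not given in the sources used here.

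Mov10l1 and Asz1 were both higher in the 2 knockout libraries than in the wild type libraries, as were 46.4% of all genes tested. Their log2 differences exceeded the median of all genes by 0.17 and 0.18. Mov10l1, the helicase that binds precursors, was at 33.6 and 37 RPKM in knockout testes, against 27.8 and 28.9 RPKM in wild type testes. Its ratio was 1.25, with an interval of 1.05 to 1.47 (adjusted p = 0.116, limma). It passed with libraries scaled to spermatocyte markers (adjusted p = 0.0466), and its adjusted p ranged from 0.0435 to 0.41 over the alternatives tried. Asz1 (GASZ), a mitochondrial scaffold of the germ granules between mitochondria, was at 3.43 and 3.46 log2 RPKM in knockout testes and 3.12 and 3.13 in wild type testes. Replicates lay close together, and the groups were 0.31 apart at their nearest points. Its log2 difference was 0.32 (SE 0.10, interval 0.09 to 0.55), and its adjusted p of 0.094 was the smallest of the 9 by limma, with a range of 0.0171 to 0.265 over the alternatives tried.

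Pld6 and Mael differed little between the groups. Pld6, the endonuclease of the mitochondrial outer membrane, was at 38.6 and 38 RPKM in knockout testes, against 32.5 and 37.7 RPKM in wild type testes. Its groups were only 0.01 apart on the log2 scale at their nearest points, although they did not overlap, and the adjusted p was 0.452 (limma). For Mael, the ratio of knockout to wild type had an interval of 0.794 to 1.20 (adjusted p = 0.87, limma), and both knockout values lay between the wild type values.

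Gtsf1 was the gene of the 9 with the lowest difference, and its interval alone lay below 0. GTSF1 is a small zinc finger protein that binds PIWI proteins and speeds their cutting of target RNAs. Its transcript was at 5.71 and 5.61 log2 RPKM in knockout testes, against 5.92 and 6.02 in wild type testes. The groups were 0.21 apart at their nearest points, and the difference was -0.31 (SE 0.11, interval -0.55 to -0.06), 1.24-fold lower in knockout testes. It did not pass the threshold (adjusted p = 0.127, limma), but did so after quantile normalization (adjusted p = 0.0335), with a range of 0.0335 to 0.443 over the alternatives tried. Of all genes tested, 11.3% had an interval wholly below 0, and 15.6% had one wholly above 0, where Piwil2, Mov10l1 and Asz1 lay.

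Set against Gtsf1 within each library, which removes a constant scaling of that library, the difference of Piwil2 changed sign. On the log2 scale, Piwil2 minus Gtsf1 was 0.17 and 0.44 in knockout testes, against -0.38 and -0.31 in wild type testes. Mov10l1 minus Gtsf1 was -0.64 and -0.40 in knockout testes, against -1.12 and -1.16 in wild type testes. The shifts of the means were 0.65 and 0.62. These comparisons were chosen after the values had been seen.

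**Figure D2:**
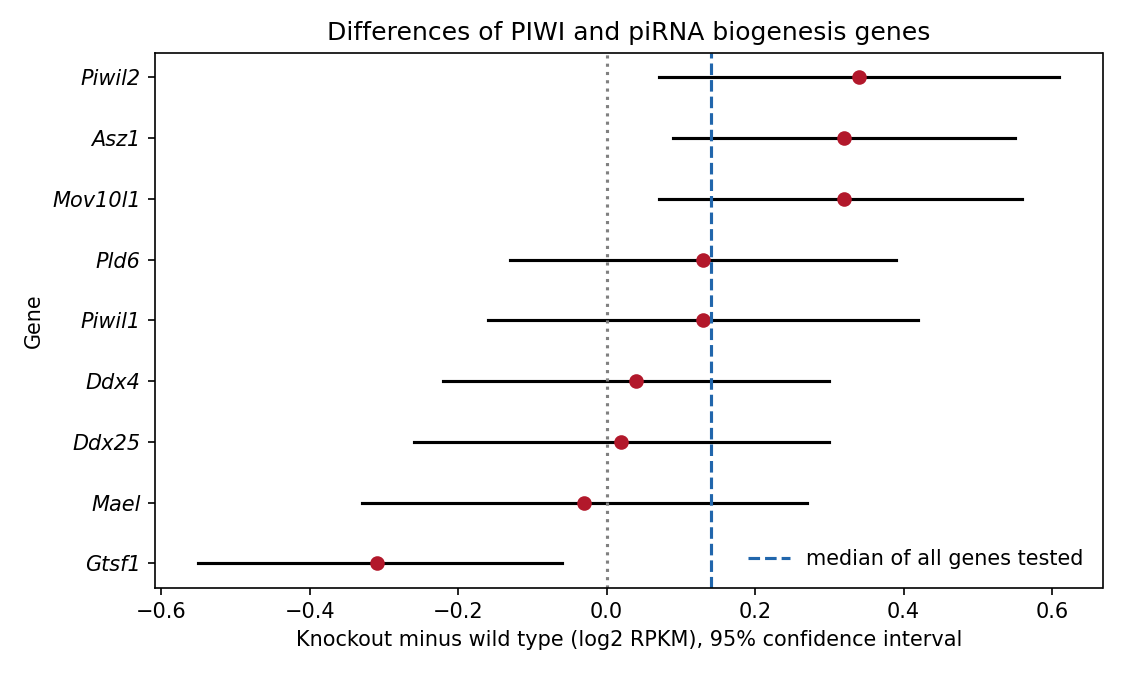
Difference of log2 RPKM, knockout minus wild type, for the 9 tested genes, with 95% confidence intervals from limma as bars. The dotted line is 0 and the dashed line is the median of all genes tested, 0.14. The intervals of Piwil2, Asz1 and Mov10l1 lie above 0 and that of Gtsf1 lies below 0, and none passed the threshold after adjustment.

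The DEAD-box helicases differed little between the groups. Ddx4 (mouse VASA homologue), a core protein of germ granules, was at 141 and 142 RPKM in knockout testes and 130 and 146 RPKM in wild type testes. Ddx25 (GRTH), a helicase of the chromatoid body that takes part in export and translation of germ cell messenger RNAs, was at 163 and 157 RPKM in knockout testes and 146 and 170 RPKM in wild type testes. In both genes the knockout values lay between the wild type values. The ratios had intervals of 0.857 to 1.23 for Ddx4 (adjusted p = 0.817, limma) and 0.834 to 1.23 for Ddx25 (adjusted p = 0.925, limma). Within libraries, Ddx25 minus Ddx4 averaged 0.18 ± 0.04 in knockout and 0.20 ± 0.04 in wild type on the log2 scale (SD, n = 2 each), so their balance differed by less than the spread between replicates. Ddx4 minus Piwil1 averaged 0.18 ± 0.03 in knockout and 0.27 ± 0.08 in wild type.

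The position of wild type replicate 1 decided the sign of several small differences. It held the lower of the wild type values in 9 of the 9 tested genes, against 55.1% of all genes tested. Without it the log2 difference of Piwil1 was -0.01 and that of Ddx4 -0.04, and the median of the 9 was -0.01. Without wild type replicate 2 the median of the 9 was 0.24 and the difference of Mael was 0.10.

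Of a list of 33 other genes of the piRNA pathway and its cofactors, 30 were tested; 4 fell, 0 rose and 26 did not pass the test in knockout testes. For comparison, 7.15% of all genes tested fell and 1.22% rose. The list was chosen with earlier results of these data known, so its counts are a description and not a test of the pathway. At an unadjusted limma p under 0.05 there were 9 of the 30 in either direction, against 27% of all genes. The median log2 difference of the 30 was 0.16, close to the 0.14 of all genes. Above 0 lay 22 of the 30, against 71.8% of all genes. The 4 that fell were Fbxo24, Gtsf1l, Kif17 and Gtsf2, and with wild type replicate 1 left out 0 of the 30 fell past the threshold (limma).

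Gtsf1l and Gtsf2 are the paralogues of Gtsf1. Like Gtsf1, which did not pass the test, they had lower values in both knockout libraries than in both wild type libraries. So did 16.8% of all genes tested, and the log2 difference of Gtsf1 was only -0.31. Gtsf1l was at 26.9 and 19 RPKM in knockout testes, against 80.2 and 74 RPKM in wild type testes. It fell 3.41-fold, with a log2 difference of -1.77 (SE 0.17, adjusted p = 0.00132, limma). Gtsf2, entered as BC048502 and matched by gene identifier, was at 25.3 and 20.1 RPKM in knockout testes, against 36.4 and 32.1 RPKM in wild type testes. It fell 1.51-fold (log2 difference -0.60, SE 0.14, adjusted p = 0.0313, limma), but its adjusted p was 0.253 without wild type replicate 1, 0.144 without wild type replicate 2 and 0.0947 without knockout replicate 2. It was 0.111 without the filter, 0.0844 in limma without trend and robust estimation and 0.0803 with libraries scaled to spermatocyte markers, within a range of 1.01e-05 to 0.253 over the alternatives tried. In mm9, Gtsf2 (chr15:103269396-103278890) lies beside Gtsf1 (chr15:103232836-103260901) on the minus strand, and Gtsf1l lies on chromosome 2. With wild type replicate 1 left out, where limma called no gene at all, the log2 difference of Gtsf1l was -1.71 (adjusted p = 0.0718, the highest over the alternatives tried).

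Fbxo24, which encodes an F-box protein reported to act on MIWI in spermatids, was at 2.48 and 1.78 RPKM in knockout testes, against 11.3 and 8.7 RPKM in wild type testes, and fell 4.73-fold (adjusted p = 0.00105, limma). Kif17, a kinesin of germ cells and neurons, was at 2.96 and 2.77 log2 RPKM in knockout testes, against 4.46 and 4.26 log2 RPKM in wild type testes, a 2.82-fold fall (adjusted p = 2.78e-04, limma). With wild type replicate 1 left out, where limma called no gene at all, the log2 differences were -2.05 for Fbxo24 and -1.39 for Kif17, against -2.24 and -1.49 in the full analysis (adjusted p = 0.0655 and 0.0535 without that library, in each case the highest over the alternatives tried). Dnmt3l, a cofactor of DNA methylation, lay below the filter and was not tested. It was at 0.579 and 0.352 RPKM in knockout testes, against 1.64 and 1.15 RPKM in wild type testes. Nanos2 and Nanos3, also below the filter and not tested, went the other way, with log2 differences of 1.47 and 0.27. Nanos2 stood at about 3 and 2 reads in knockout testes and 1 and 1 in wild type testes. The wild type values lay near the floor, where 0 reads were taken to stand at 0.9 of a read. The difference of Nanos2 thus rests on a few reads.

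Among listed genes above 0, those with the smallest p were Tdrd1, Fkbp6 and Henmt1, a choice made after the values had been seen. Tdrd1, a Tudor protein that binds MILI, was at 55 and 60.9 RPKM in knockout testes, against 41 and 47.3 RPKM in wild type testes. Fkbp6, a co-chaperone of piRNA loading, had an interval of 1.06 to 1.46 for its ratio, and Henmt1, the methyltransferase of piRNA ends, had 1.07 to 1.63. None passed the threshold (adjusted p = 0.09 for Tdrd1, 0.0997 for Fkbp6 and 0.112 for Henmt1, limma). Mybl1, which encodes A-MYB, was at 3.95 and 3.85 log2 RPKM in knockout testes, against 3.60 and 3.72 in wild type testes (adjusted p = 0.189, limma).

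**Figure D3:**
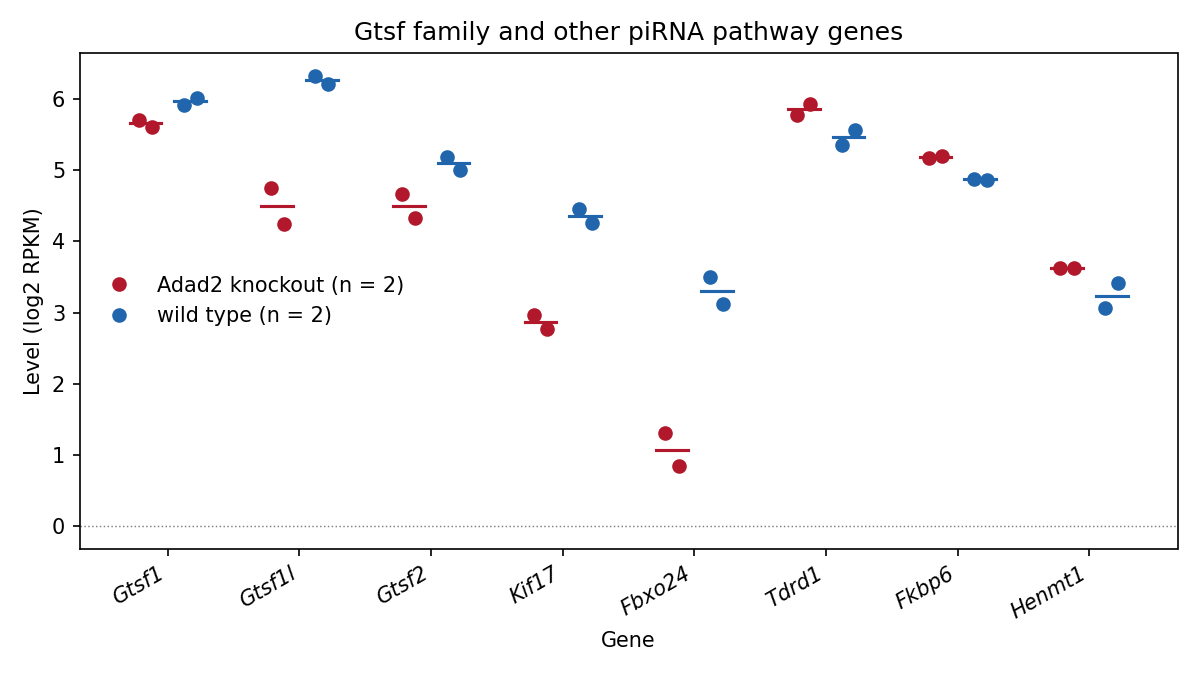
Level in log2 RPKM of Gtsf1 and 7 other piRNA pathway genes in each library, with group means as bars (Adad2 knockout, n = 2, and wild type, n = 2). Gtsf1l, Gtsf2, Kif17 and Fbxo24 lie lower in knockout testes past the threshold, while Tdrd1, Fkbp6 and Henmt1 lie higher without passing it.

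Markers of spermatids moved in the same libraries. All marker lists were chosen with earlier results of these data known, so their counts are a description. Of all genes tested, 7.15% fell and 1.22% rose. Of 14 genes of round spermatids and the acrosome, 11 fell and 0 rose (median log2 difference -1.89), and of 14 elongating spermatid genes, 13 fell and 0 rose (median -2.42). Their summed levels were 163 and 127 RPKM for round spermatids in knockout testes, against 379 and 343 RPKM in wild type testes, and 172 and 109 RPKM for elongating spermatids in knockout testes, against 1200 and 1120 RPKM in wild type testes. Smcp, a protein of the sperm mitochondrial capsule, averaged 4.98 ± 0.45 log2 RPKM in knockout testes and 7.13 ± 0.13 in wild type testes (SD, n = 2 each). Acr, the acrosomal protease acrosin, averaged 5.58 ± 0.05 and Zpbp 4.60 ± 0.09 in knockout testes, against 5.80 ± 0.10 and 4.88 ± 0.14 in wild type testes. Acr and Zpbp, the highest of the round spermatid list, did not pass the test (adjusted p = 0.221 and 0.16, limma). The part of spermatids in the lower values of the Gtsf genes, Kif17 and Fbxo24 was not tested.

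Lists of earlier germ cells, in which much of the piRNA machinery is made, had medians nearer to 0 than the spermatid lists. Medians were 0.24 for 12 spermatogonial genes, 0.28 for 14 early meiotic prophase genes and 0.00 for 13 pachytene genes, of which 0, 0 and 3 passed the test (2 fell and 1 rose). At an unadjusted limma p under 0.05 there were 5, 7 and 3. Of all genes tested, 8.36% passed the test and 27% had an unadjusted p under 0.05. The median over all genes tested was 0.14. Above 0 lay 12 of 12 spermatogonial, 12 of 14 early meiotic and 7 of 13 pachytene genes, against 71.8% of all genes. Both knockout libraries lay above both wild type libraries for 10, 11 and 3 of them, against 46.4% of all genes. The pachytene genes went both ways: Calr3, a testis chaperone of the endoplasmic reticulum, and the kinase Pgk2 fell, with log2 differences of -2.55 and -0.62. The surface protein Tex101 rose, at 8.89 ± 0.04 log2 RPKM in knockout testes, against 7.75 ± 0.13 in wild type testes (SD, n = 2 each). Ldhc, the highest of the list, averaged 9.89 ± 0.12 log2 RPKM in knockout testes and 9.92 ± 0.17 in wild type testes. Of the early meiotic genes, Sycp3 averaged 7.12 ± 0.01 in knockout testes and 6.83 ± 0.16 in wild type testes. Syce1 averaged 7.08 ± 0.10 in knockout testes and 7.04 ± 0.14 in wild type testes. Sertoli cell genes had a median of 0.27, with 2 of 13 rising, against 1.22% of all genes, and 13 above 0, against 71.8%. Their summed levels were 746 and 749 RPKM in knockout testes, against 625 and 597 RPKM in wild type testes. Leydig, peritubular and endothelial, and macrophage lists had medians of 0.20, 0.20 and 0.11, and 0 of their 9, 5 and 7 tested genes passed the test (1, 1 and 0 at an unadjusted p under 0.05, limma). Clu, of the Sertoli list, averaged 8.16 ± 0.00 log2 RPKM in knockout testes and 7.83 ± 0.10 in wild type testes. Insl3, of the Leydig list, averaged 8.07 ± 0.34 in knockout testes and 7.83 ± 0.27 in wild type testes. Leydig genes could vary widely within a group, as Cyp17a1 did, at 3.85 and 6.02 in wild type testes and 4.63 and 5.85 in knockout testes. The levels of Clu, Insl3 and Ldhc show transcripts of these lists in every library. The part of any cell type in the differences of Piwil2, Mov10l1 and Asz1 was not tested.

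**Figure D4:**
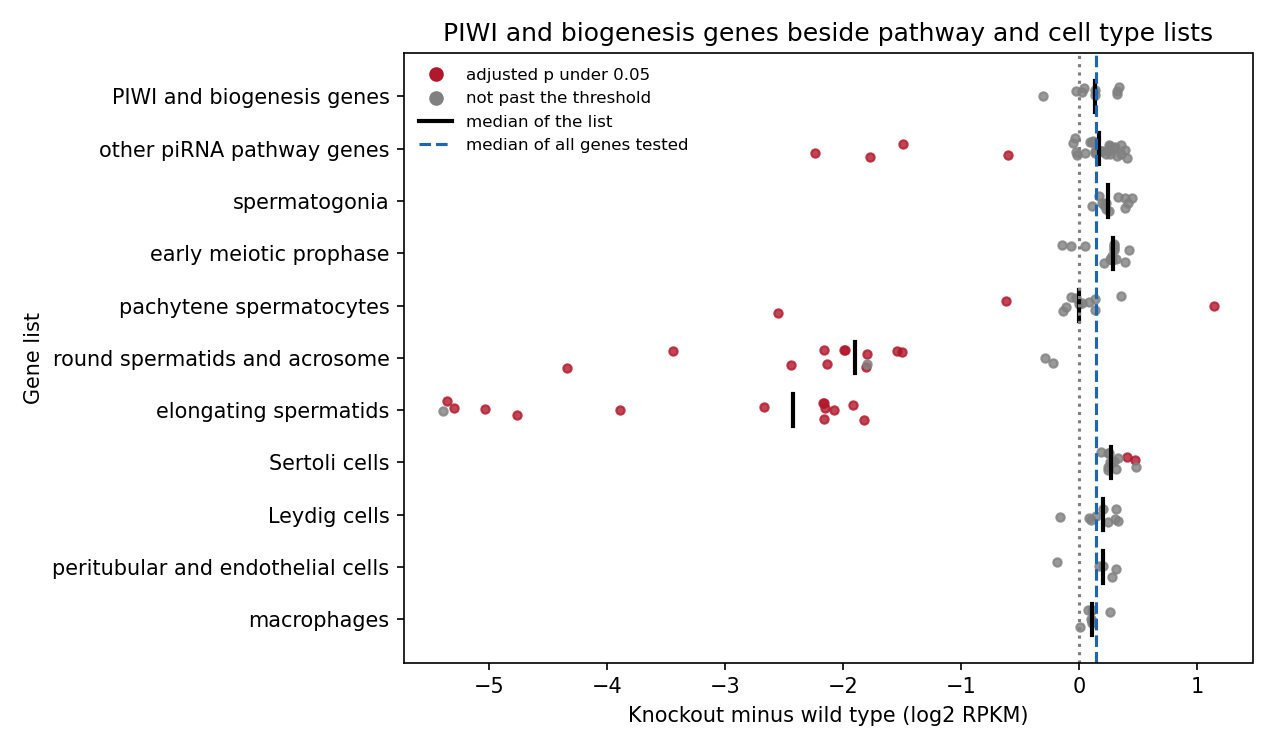
Difference of log2 RPKM, knockout minus wild type, for each tested gene of 11 lists; black bars are list medians, the dotted line is 0 and the dashed line is the median of all genes tested, 0.14. The PIWI and biogenesis genes lie between -0.31 and 0.34 with none past the threshold, while round and elongating spermatid genes have medians of -1.89 and -2.42.

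The profiles nearest to those of Piwil1 and Piwil2 belonged to genes outside the lists, and many lay close. By root mean square distance of log2 RPKM over the 4 libraries, each gene centred on its own mean, the nearest to Piwil1 were Zcchc10 (0.0049), Rabl3 (0.0078) and Rpl8 (0.008). The nearest to Piwil2 were Romo1 (0.0073), Atp2b4 (0.0094) and Rcan1 (0.011). Of 10505 genes compared, 2673 lay within 0.1 of Piwil1 and 1987 within 0.1 of Piwil2, so with 4 libraries these neighbours are not particular to either gene.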

How the data were processed

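Total RNA of whole testes was sequenced in 4 libraries, and the authors deposited log2 RPKM values per gene on mm9. Per the submitters' processing notes, bcl2fastq 2.17.1.14 and Bowtie2 were used; the counting tool, annotation and strand setting were not stated in the labels or the table. Columns were tied to libraries through group and replicate number, and 59 entries without a gene name (0.23%) were left out. The table holds no read counts. Depth and reads per gene were estimated from single-exon genes, with Gencode M21 exon lengths. The most frequent low value of level times length was taken to stand for 0 reads, entered as 0.9 of a read. That setting was assumed and is not given in the labels or the table.

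Genes with a mean of at least 0 on the log2 scale over the 4 libraries (13414) entered a two-sided, unpaired limma 3.58.1 fit (R 4.3.3; intensity trend, robust estimation with statmod 1.5.0). Benjamini-Hochberg adjustment covered every gene in the fit, with a threshold of 0.05. No pseudocount was added, and folds near the floor are understated. The code was tested on simulated data. Most genes were named by rule. These were the 10 genes, Adad2, and listed pathway genes past the threshold or among the 4 smallest p. The rule also covered the 3 nearest profiles of Piwil1 and Piwil2 and the highest members of each marker list, of which not all are printed. Tdrd1, Fkbp6, Henmt1, Mybl1, Dnmt3l, Nanos2, Nanos3, Calr3, Pgk2 and Tex101 were named outside the rule, with the values known. The 10 genes and all lists were chosen with earlier results of these data known. Henmt1, Btbd18, Gtsf2, Meiob, Majin, Ybx3 and Adgre1 were matched by gene identifier, and Rhox5 was not analysed here.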

Additional observations from a re-analysis of the deposited data

How the results depend on the processing

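With 2 libraries a group, a p that misses the threshold does not show equal levels, and Piwil4, at 35 to 48 reads a library, gave no resolved direction. The set-wide counts of called genes moved with the settings. Lower calls, 959 in the full analysis, were 637 with a filter at a mean of 2 and 1477 with the replicate block, and ranged from 0 to 1308 when a library was left out. Higher calls, 163 in the full analysis, were 245 after quantile normalization, 97 without a filter, 1837 with the replicate block and 332 with libraries scaled to spermatocyte markers (chosen after seeing the data), and ranged from 0 to 494 when a library was left out. Without wild type replicate 1, limma called 0 genes either way, with 2357 at an unadjusted p under 0.05. No tested PIWI or biogenesis gene was called in the full analysis or without any library. After quantile normalization 1 was called lower (Gtsf1), with the replicate block 2 were called higher (Mov10l1, adjusted p = 0.0435, and Asz1, 0.0171), and with spermatocyte scaling 2 were called higher (Piwil2, 0.0474, and Mov10l1, 0.0466). That scaling moved the median difference of all genes to 0.21. Of the other pathway genes, 0 rose in the full analysis, against 2 after quantile normalization, 4 with the replicate block and 2 with spermatocyte scaling, and 0 to 4 fell when a library was left out. The median difference of the 9 genes ranged from -0.01 to 0.24 when a library was left out. Small differences changed sign when a library was left out, and ranged from -0.01 to 0.27 for Piwil1, -0.16 to 0.10 for Mael, -0.04 to 0.12 for Ddx4 and -0.09 to 0.13 for Ddx25, with each lowest value without wild type replicate 1 and each highest without wild type replicate 2. The difference of Mael was 0.04 with spermatocyte scaling and that of Ddx4 was -0.03 after quantile normalization. Ddx25 minus Ddx4 within libraries shifted by 0.04 after quantile normalization, against -0.02. The causes were not tested. Deviations of same-numbered replicates correlated at r = 0.331 across genes, but with 2 pairs the numbers are not known to pair the samples.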
